A study of Homo sapiens with 6 samples.

Results

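The genes described here encode the core proteins of small RNA silencing, the machinery that a transfected siRNA depends on. They are the 4 Argonaute genes AGO1, AGO2, AGO3 and AGO4, the 3 scaffold genes TNRC6A, TNRC6B and TNRC6C, and DICER1 with the genes of its double-stranded RNA-binding partners, TARBP2 and PRKRA, 10 of the 58395 genes in the count table. The members were listed by symbol, but the family was picked from the comparison of siCRP2 with siCTR itself, because the higher level of TNRC6A was among the clearest changes in it. Fold changes of the members are therefore given as a description, without p-values, and their calls support nothing.

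An Argonaute protein holds a short guide RNA and uses it to find matching mRNAs. AGO2 can cut a fully matched target, which is how an siRNA depletes its intended mRNA. TNRC6 proteins (also called GW182 proteins) bind Argonaute through repeats of glycine and tryptophan and recruit the deadenylases and the decapping machinery that destroy partly matched mRNAs. DICER1 cuts hairpin precursors into the duplexes from which microRNAs are loaded, with the help of TARBP2 (TRBP) and PRKRA (PACT).

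MDA-MB-231 is an invasive human cell line from a breast adenocarcinoma. The cells of both groups were transfected, 3 libraries with a non-targeting siRNA (siCTR) and 3 with a single siRNA against CSRP2, the gene of CRP2 (siCRP2), and were harvested 65 h later according to the labels, while the methods of the study give a slightly later time. No library came from untransfected cells, so the level of these genes before any siRNA entered the cells was not measured. The study describes the libraries as biological replicates, and p-values measure the spread between them.

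Each siCTR library held 17336798 to 25321830 counts and each siCRP2 library 18346442 to 39115778, and 1 count was worth 0.0256 to 0.0582 CPM, the unit of level used here, which scales counts to library size after TMM normalisation. The libraries are named by the code in their column names, 0412, 0611 or 1311, which pairs a library of each group. CSRP2 stood at 13.7, 11.7 and 11.4 CPM in the siCTR libraries 0412, 0611 and 1311 and at 2.17, 1.78 and 1.89 CPM in the siCRP2 libraries of the same codes (log2 fold change -2.66 ± 0.178 SE; quasi-likelihood test of edgeR, adjusted p = 2.4e-08). Genes of the line's epithelial and mesenchymal traits were abundant in all libraries (KRT8, KRT18, VIM and CD44, none of the 4 called in either direction). The T cell gene CD3E and the hepatocyte gene ALB had 0 to 3 counts in any library, PTPRC had 1 to 16, and the endothelial gene PECAM1 was lower after siCRP2 (4.60 to 6.95 against 9.64 to 21.5 CPM). The part of these markers in the results below was not tested.

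TNRC6A had the largest change of the 10 genes. Its level was 60.5, 56.4 and 60.3 CPM in the siCTR libraries 0412, 0611 and 1311 and 137, 117 and 136 CPM in the siCRP2 libraries of the same order. Each siCRP2 library lay far above each siCTR library, and the spread within each group was small beside the distance between them. The means were 59.1 ± 2.34 CPM in siCTR and 130 ± 10.8 CPM in siCRP2 libraries (3 each, ± SD), which on the log2 scale is a difference of 1.14 with a standard error of 0.0898. TNRC6A (ENSG00000090905) lies on the plus strand of chromosome 16 of GRCh38 from 24610209 to 24827632. In bulk RNA such a difference can reflect more RNA per cell or more cells with high levels, and these cannot be told apart.

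TNRC6C, a paralog with the same domain plan, changed in the same direction. It stood at 17.6, 14.5 and 14.2 CPM in the siCTR libraries and at 28.5, 24.2 and 28.6 CPM in the siCRP2 libraries, in the order of codes used above. The groups did not overlap, and the log2 fold change was 0.81 (standard error 0.127). TNRC6C (chromosome 17, 77958703 to 78108822, plus strand) shares 12.3% of its exon bases with TMC6 on the opposite strand. TMC6 itself was lower in siCRP2 cells, at a log2 fold change of -0.60 and a mean of 37.7 CPM over the 6 libraries. The study names a stranded library preparation, but without the strand setting of the count the reads of the shared bases cannot be assigned.

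TNRC6B, the third paralog, did not separate the groups. It stood at 25.2, 28.8 and 30.0 CPM in siCTR and at 29.2, 32.1 and 32.0 CPM in siCRP2 libraries, so the lowest siCRP2 library lay below the highest siCTR library. Within each code the siCRP2 library was the higher one, by 0.21, 0.16 and 0.095 on the log2 scale, and the fitted log2 fold change was 0.15 (standard error 0.109).

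**Figure D1:**
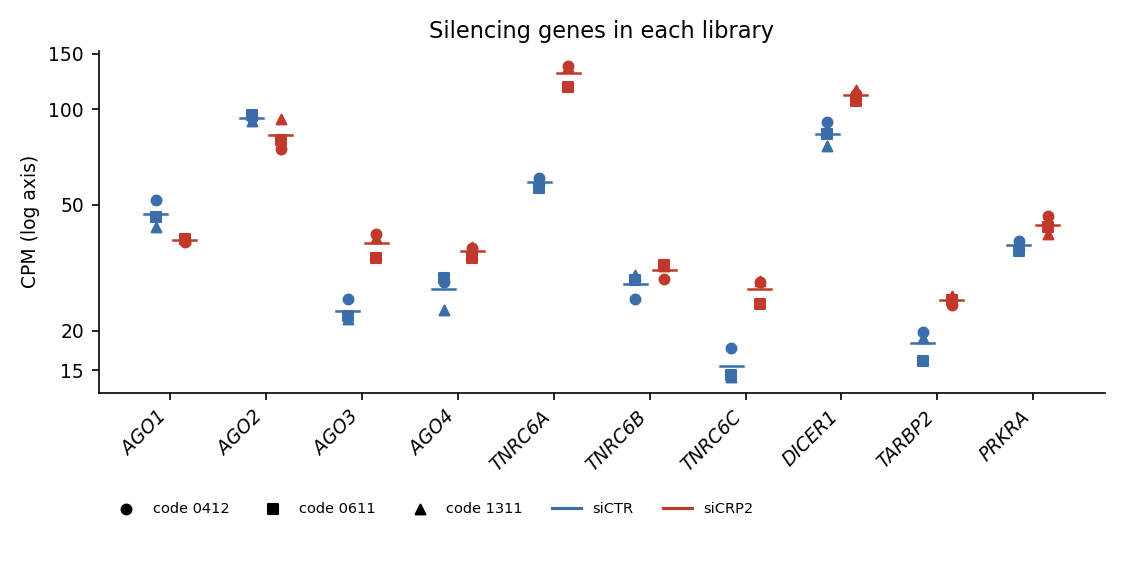
CPM of the 10 silencing genes (log axis) in each library, with siCTR in blue and siCRP2 in red, the marker giving the code of the library and the line the group mean. TNRC6A stands at 56.4 to 60.5 CPM in siCTR and at 117 to 137 CPM in siCRP2 libraries, while AGO2 and TNRC6B overlap between groups.

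The 4 Argonaute genes did not change in a common direction. AGO3 stood at 25.2, 22.2 and 21.7 CPM in siCTR and at 40.3, 33.9 and 39.2 CPM in siCRP2 libraries. The groups did not overlap, and the log2 fold change was 0.71 (standard error 0.112). AGO4 stood at 28.6, 29.3 and 23.2 CPM in siCTR and at 36.5, 33.8 and 36.8 CPM in siCRP2 libraries, again without overlap, with a log2 fold change of 0.40 (standard error 0.113).

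AGO1 was at lower values in siCRP2 cells. Its siCTR libraries held 51.8, 45.7 and 42.3 CPM and its siCRP2 libraries 38.2, 39.1 and 38.9 CPM. The groups did not overlap, but the siCTR values were spread more widely than the siCRP2 values (SD 4.82 against 0.466 CPM), and the log2 fold change of -0.27 (standard error 0.101) did not reach the call. AGO2, the Argonaute that cuts its target, held 94.0, 96.3 and 92.0 CPM in siCTR and 74.6, 80.0 and 93.2 CPM in siCRP2 libraries. The siCRP2 library 1311 lay within the range of siCTR and the other two lay below it, for a log2 fold change of -0.19 (standard error 0.0933).

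AGO4 (35808016 to 35857890), AGO1 (35869808 to 35930532) and AGO3 (35930718 to 36072500) follow each other on the plus strand of chromosome 1, so that AGO1, at a negative log2 fold change, lies between 2 neighbours at positive ones. The 250 bases before the RefSeq starts of AGO1 and AGO3 are shown because these adjacent genes lay on opposite sides of 0, and those of TNRC6A because it had the largest change. All are written 5′ to 3′ on the plus strand of GRCh38.p14, at chr1:35882959-35883208, chr1:35930855-35931104 and chr16:24729401-24729650. Each window lies within the span given above for its gene, whose first base lies upstream of it, so the window need not be the only promoter. Capitals mark GGGCGG (an SP1-type GC box) and CCAAT (the letters bound by NF-Y), each searched on both strands.
AGO1: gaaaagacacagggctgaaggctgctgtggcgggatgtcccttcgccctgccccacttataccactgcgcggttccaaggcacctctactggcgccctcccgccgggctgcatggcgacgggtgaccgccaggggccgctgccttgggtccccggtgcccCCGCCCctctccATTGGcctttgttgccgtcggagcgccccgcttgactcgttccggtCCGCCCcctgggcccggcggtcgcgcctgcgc
AGO3: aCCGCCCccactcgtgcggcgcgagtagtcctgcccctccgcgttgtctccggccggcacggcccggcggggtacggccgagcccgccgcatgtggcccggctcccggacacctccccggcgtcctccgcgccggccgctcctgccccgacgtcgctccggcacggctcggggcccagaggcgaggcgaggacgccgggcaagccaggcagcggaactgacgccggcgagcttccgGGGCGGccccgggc
TNRC6A: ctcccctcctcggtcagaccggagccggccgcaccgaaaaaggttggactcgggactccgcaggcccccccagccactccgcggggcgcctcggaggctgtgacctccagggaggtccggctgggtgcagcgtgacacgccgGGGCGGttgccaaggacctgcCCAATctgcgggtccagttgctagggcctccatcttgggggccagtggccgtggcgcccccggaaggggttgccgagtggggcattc

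All 3 windows are rich in G and C, at 71.6%, 80.0% and 71.6% for AGO1, AGO3 and TNRC6A. AGO1 holds 2 copies of GGGCGG and a CCAAT, AGO3 holds 2 copies of GGGCGG, and TNRC6A holds 1 of each. Of 35116 windows of this length in the RefSeq table, 42.6% hold GGGCGG and 32.0% CCAAT. The CArG box, the element that serum response factor binds and that the study takes up as the partner of CRP2, was found in 1.16% of all windows and in none of those listed for the 9 members that matched the table. CACGTG (6.34% of all windows) was found in 1 of the 4 windows of TNRC6C and TATAAA (10.7%) in no member. A match is a run of letters only, and its absence says nothing about the factor.

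DICER1 and its partners were all at higher values after siCRP2. DICER1 held 91.0, 83.5 and 76.4 CPM in siCTR and 111, 106 and 115 CPM in siCRP2 libraries. The groups did not overlap, and the log2 fold change was 0.41 (standard error 0.0888). TARBP2 held 19.7, 16.1 and 19.0 CPM in siCTR and 24.1, 25.1 and 25.8 CPM in siCRP2 libraries, also without overlap (log2 fold change 0.45, standard error 0.118). PRKRA held 38.4, 35.6 and 37.4 CPM in siCTR and 46.1, 42.4 and 40.5 CPM in siCRP2 libraries. Its groups did not overlap either, but its log2 fold change of 0.21 (standard error 0.0988) was not called. TARBP2 shares 13.2% of its exon bases, and PRKRA 8.85%, with a non-coding gene on the opposite strand, at means of 0.197 and 2.99 CPM.

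Of the 10 genes 6 were called higher at an adjusted p under 0.05 in edgeR's quasi-likelihood test (TNRC6A, TNRC6C, AGO3, AGO4, DICER1 and TARBP2) and 0 lower, while AGO1, AGO2, TNRC6B and PRKRA were not called. Over all 23806 genes tested 12.5% were called higher and 11.5% lower, and over the 10827 with a mean of at least 5 CPM, as all members have, 25.3% and 18.0%. The siCRP2 libraries lay wholly above the siCTR libraries in 7 members and wholly below in 1, against 19.4% and 18.0% of all genes tested. That share was not counted for genes of at least 5 CPM, which the members resemble more in level. Since the family was picked from this comparison, nothing is read from these counts. At an unadjusted p under 0.05, 7 members were higher and 1 was lower, and DESeq2 called 1 lower (AGO1). With libraries paired by code, 7 members were called higher (PRKRA was added) and 2 lower (AGO1 and AGO2). Shares over all genes under these other rules were not counted, so the shares above do not apply to them and nothing is read from them. The median log2 fold change was 0.41 over the members and -0.022 over all genes tested.

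**Figure D2:**
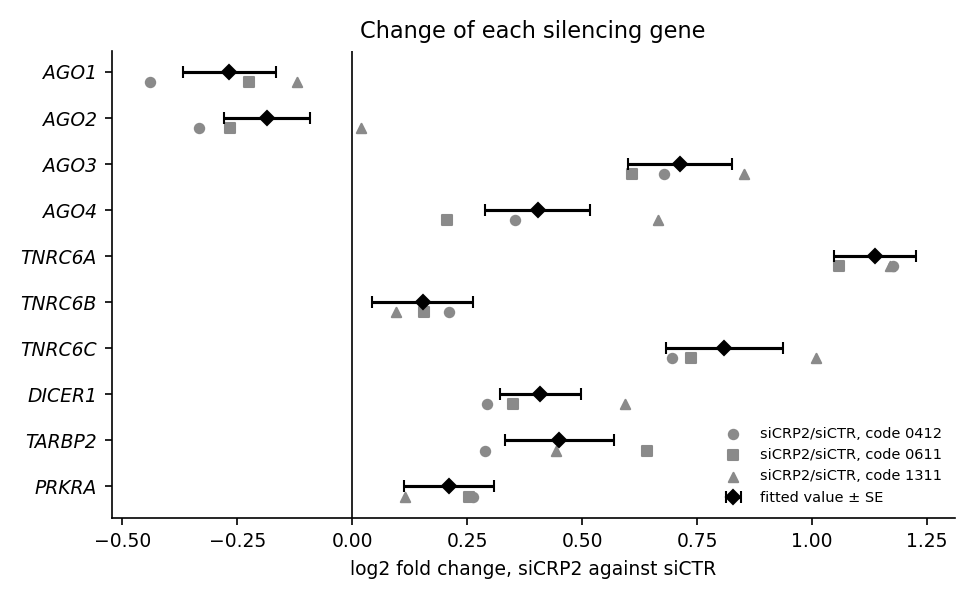
Log2 fold change of siCRP2 against siCTR for each gene, with the fitted value and its standard error in black and the ratio within each code in grey. TNRC6A lies between 1.06 and 1.17 in the 3 codes, AGO1 is below 0 in all 3 and AGO2 in 2 of 3.

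Ratios within the codes showed how steady each change was. TNRC6A had log2 ratios of 1.17, 1.06 and 1.17 for the codes 0412, 0611 and 1311. AGO3 had 0.68, 0.61 and 0.85, TNRC6C 0.69, 0.74 and 1.01, and DICER1 0.29, 0.35 and 0.59, each highest for code 1311. AGO1 had -0.44, -0.23 and -0.12, so the sizes differed though the direction did not. AGO2 had -0.33, -0.27 and 0.019. The calls of AGO4 and TARBP2 rested on single libraries. AGO4 was not called without siCRP2 library 1311 (log2 fold change 0.36) or siCTR library 1311 (0.30), and TARBP2 was not called without siCRP2 library 0611 (0.42) or 1311 (0.40) or siCTR library 0611 (0.37). AGO1 was called lower without siCTR library 1311 (-0.33).

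Levels were compared between genes as CPM per kilobase of merged exons, within the Argonaute and the TNRC6 families. In siCTR cells AGO2 was the most abundant Argonaute mRNA at 5.94 ± 0.134, followed by AGO4 at 3.64 ± 0.448, AGO1 at 3.32 ± 0.343 and AGO3 at 1.09 ± 0.0873 CPM per kilobase (SD, n = 3 libraries each). AGO4 and AGO1 overlapped between libraries and the other neighbours in this order did not. In siCRP2 cells AGO2 stood at 5.21 ± 0.604 and AGO4 at 4.81 ± 0.222 CPM per kilobase, and the libraries of the pair now overlapped, while AGO1 (2.76 ± 0.0332) and AGO3 (1.79 ± 0.160) lay apart below them. With the length of the canonical transcript the order was the same in both groups, but AGO2 and AGO4 did not overlap in siCRP2 cells. The sum over the 4 Argonaute genes was 14.7, 14.3 and 13.0 in siCTR and 14.3, 14.0 and 15.5 CPM per kilobase in siCRP2 libraries, with overlap between the groups. The make-up of the sum is given as a description only, since the family was picked from this comparison. The shares add up to the whole, so they are not 4 separate results. How often shares within other families separate the groups was not counted. The share of AGO2 was 42.5 ± 2.15% in siCTR and 35.7 ± 2.52% in siCRP2 libraries, that of AGO1 23.7 ± 1.30% and 19.0 ± 0.981%, that of AGO4 26.0 ± 1.75% and 33.0 ± 1.30%, and that of AGO3 7.79 ± 0.402% and 12.3 ± 0.975% (SD, n = 3 each), and none of the 4 shares overlapped between the groups.

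TNRC6A was the main TNRC6 mRNA in both groups. It stood at 4.56 ± 0.181 CPM per kilobase in siCTR cells, against 1.40 ± 0.123 for TNRC6B and 1.33 ± 0.162 for TNRC6C, which overlapped. In siCRP2 cells it stood at 10.02 ± 0.836, TNRC6C at 2.33 ± 0.218 and TNRC6B at 1.56 ± 0.0824 CPM per kilobase, with no overlap among the 3 (SD, n = 3 libraries each). The sum of the 3 genes was 7.44, 7.03 and 7.37 CPM per kilobase in siCTR libraries. In siCRP2 libraries it was 14.5, 12.7 and 14.5 CPM per kilobase, without overlap between the groups. The family was picked through TNRC6A, so nothing is read from the change of this sum. TNRC6A made up 62.5 ± 0.663% of it in siCTR and 72.0 ± 0.925% in siCRP2 libraries. With canonical transcript lengths the shares were 69.7 ± 0.596% and 78.0 ± 0.776%.

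**Figure D3:**
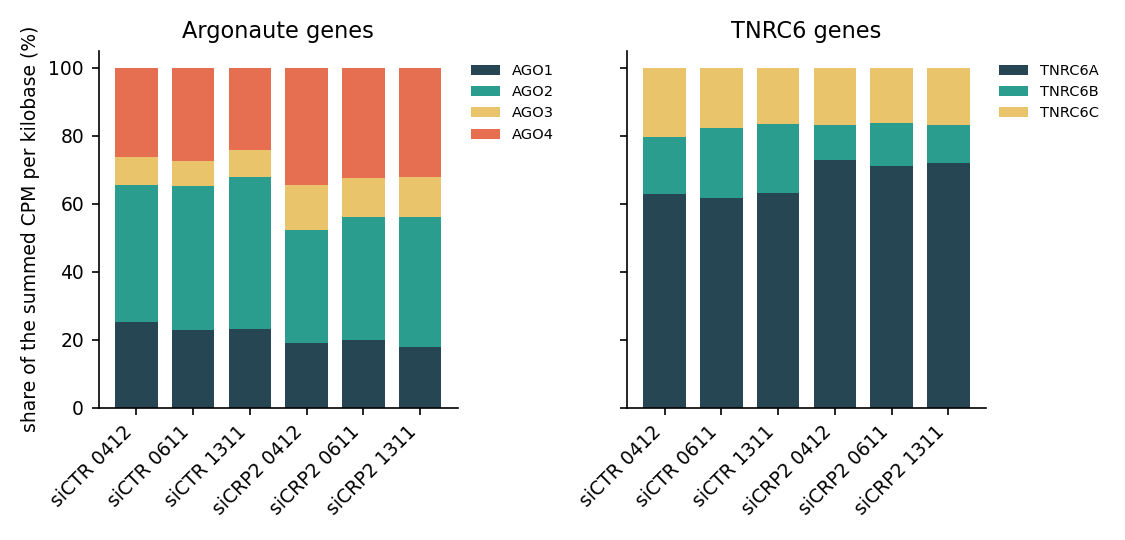
Share of each gene in the summed CPM per kilobase of the Argonaute genes (left) and the TNRC6 genes (right), in percent, for each of the 6 libraries. AGO2 takes 40.5% to 44.8% of the Argonaute sum in siCTR and 33.1% to 38.0% in siCRP2 libraries, and TNRC6A 61.8% to 63.1% and 71.1% to 72.9% of the TNRC6 sum.

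The level of DICER1 and its partners depended on the length used. With merged exons TARBP2 stood at 4.47 ± 0.474, DICER1 at 3.78 ± 0.329 and PRKRA at 3.08 ± 0.119 CPM per kilobase in siCTR cells. With canonical transcripts, which are much shorter for these genes (1510 bases for TARBP2, 10384 for DICER1 and 1770 for PRKRA), PRKRA came first at 21.0 ± 0.814 CPM per kilobase and DICER1 last of the 3 at 8.05 ± 0.703 (SD, n = 3 each). No order between these genes is therefore given.

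The heptamer GCCTCAC was looked up in the canonical transcripts of the members because it had been picked from the fold changes of these same libraries as a sequence frequent in lower genes. Its shares in the called genes were therefore set in part by that choice, and its place among the members is a description only. It was present in 46.5% of the protein-coding genes called lower, 11.9% of those called higher and 21.9% of those not called (median transcript lengths 3670, 3605 and 3095 bases). Of the members 5 hold it and 5 do not, beside 23.9% of all 14858 protein-coding genes tested (median transcript length 3275 bases). AGO1, AGO2 and TNRC6B, none of which was called in the main fit, hold it in the 3′ UTR, TNRC6B at 2 places. AGO1 was called lower in 6 of 13 other fits and AGO2 in 1, that with libraries paired by code, while TNRC6B was called in 0. DICER1 holds it in the coding sequence and AGO3 in the 5′ UTR, and both were called higher. TNRC6A, TNRC6C, AGO4, TARBP2 and PRKRA do not hold it. CSRP2 holds it once, in its coding sequence. The transcripts of the 5 members that hold it are 10384 to 19660 bases long and those of the 5 others 1510 to 10391 bases, and a long transcript is more likely to hold any heptamer. All sites but that of AGO2 are shown with their flanks, 5′ to 3′ on the transcript and with the heptamer in capitals, so that they can be compared with that of CSRP2.
CSRP2, coding (chr12:76860401-76860407, minus strand): gagagtgttcaGCCTCACaggcctacaac
AGO1, 3′ UTR (chr1:35922156-35922162, plus strand): tttctctctttGCCTCACtctctccagtt
TNRC6B, 3′ UTR, first site (chr22:40323754-40323760, plus strand): gacttgacggaGCCTCACtttaaaaacaa
TNRC6B, 3′ UTR, second site (chr22:40329833-40329839, plus strand): tgccagtgtttGCCTCACcaaatttaaat
DICER1, coding (chr14:95124470-95124476, minus strand): acttctcacctGCCTCACttgacctgaaa
AGO3, 5′ UTR (chr1:35931200-35931206, plus strand): cctctgtccgcGCCTCACatctccccttc

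The sequence of the siRNA was not used here, and whether it matches these sites was not tested.

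The lists of the wider pathway were written with earlier results of these data known, so their counts are a description only. Of 60 genes in 5 lists that follow a small RNA from its precursor to the decay of its target, 58 had enough counts to test. By the same call rule 23 were higher, 8 lower and 27 neither, which is 39.7% and 13.8%, beside the 25.3% and 18.0% of genes of at least 5 CPM given above. LIN28A and DCP1B, which are among the 58, had means under 5 CPM over all libraries. The median log2 fold change was 0.18. With a fold change of at least 1.5 as well, a limit named in the study's methods, 3 of the 23 and 1 of the 8 were left. The number of lower genes depended on single libraries: it was 3 without siCRP2 library 1311, 5 without siCTR library 0412 and 4 without siCTR library 0611.

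Upstream of DICER1, 1 of 7 genes of the nuclear microprocessor and of precursor export was higher and 0 were lower, beside the 25.3% and 18.0% of genes of at least 5 CPM. DROSHA, the nuclease that releases the hairpin from the primary transcript, rose from 85.4 ± 10.1 CPM in siCTR to 112 ± 2.95 CPM in siCRP2 libraries (3 each, ± SD), by 0.38 ± 0.0938 (SE) on the log2 scale (edgeR, adjusted p = 0.0059). Its call was lost without siCRP2 library 1311 or siCTR library 0611 (edgeR, adjusted p = 0.055 and 0.0502). Its RNA-binding partner DGCR8 stood at 0.069 ± 0.106 (SE) on the log2 scale, the exporter of precursors XPO5 at -0.029 ± 0.0901 (SE), SRRT at 0.15 and RAN at 0.14, none of which passed. Of 8 genes that tail, edit or degrade precursors, 7 were tested, with 1 higher and 1 lower, beside the same shares. The poly(A) polymerase gene TENT2 rose by 0.34 on the log2 scale (edgeR, adjusted p = 0.011), a call lost without siCRP2 library 0412 or 0611 (edgeR, adjusted p = 0.053 and 0.066). KHSRP, which binds precursors and helps their processing, fell by 0.30 on the log2 scale (edgeR, adjusted p = 0.014), a call lost without siCRP2 library 1311 (edgeR, adjusted p = 0.065). TUT4, a uridylyl transferase, was at 0.21 and did not pass (edgeR, adjusted p = 0.074), but was called higher with libraries paired by code (edgeR, adjusted p = 0.0055) and with library totals alone (edgeR, adjusted p = 0.045). LIN28A had 0 counts in each siCTR library and at most 1 in a siCRP2 library, and no fold is given.

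Of 10 Argonaute partners and regulators of Argonaute turnover 9 were tested, with 6 higher and 2 lower, and a median log2 fold change of 0.44. That is 66.7% and 22.2%, beside 25.3% and 18.0% of genes of at least 5 CPM. WTIP rose from 10.9 ± 0.978 CPM in siCTR to 22.8 ± 2.12 CPM in siCRP2 libraries (3 each, ± SD), by 1.07 ± 0.129 (SE) on the log2 scale (edgeR, adjusted p = 1.3e-05). LIMD1, which like WTIP encodes a LIM domain protein of the Ajuba family that binds Argonaute and TNRC6 proteins, rose by 0.41 on the log2 scale (edgeR, adjusted p = 0.0019). AJUBA, named here after its values were seen as the remaining member of that family in the list, rose by 0.48 (edgeR, adjusted p = 0.0020). The RNA-binding protein genes FXR1 and FMR1 rose by 0.44 and 0.51 on the log2 scale (edgeR, adjusted p = 0.00079 and 0.00085). The 2 lower genes were also named after their values were seen. ZSWIM8, a ubiquitin ligase receptor that removes Argonaute bound to certain targets, stood at -0.70 on the log2 scale (edgeR, adjusted p = 0.0083). IPO8, an importin that binds Argonaute, stood at -0.28 on the log2 scale (edgeR, adjusted p = 0.025). LIMD1 shares 24.9% of its exon bases with a non-coding gene on the opposite strand. ZSWIM8 shares 16.8% with a protein-coding gene and 11.9% with a non-coding gene there, and reads of such bases cannot be assigned.

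Of 8 genes of loading chaperones and of passenger strand removal 4 were higher and 0 lower, with a median log2 fold change of 0.25. That is 50% and 0%, beside 25.3% and 18.0% of genes of at least 5 CPM. HSP90AA1, the inducible form of the chaperone that opens Argonaute for loading, rose from 1622 ± 152 CPM in siCTR to 2371 ± 150 CPM in siCRP2 libraries (3 each, ± SD), by 0.55 on the log2 scale (edgeR, adjusted p = 0.00045). CLP1, a kinase that can phosphorylate the end of an siRNA, rose by 0.53 (edgeR, adjusted p = 0.0029). CLP1 shares 11.9% of its exon bases with YPEL4 on the opposite strand. The co-chaperone genes PTGES3 and FKBP4 rose by 0.29 each (edgeR, adjusted p = 0.030 and 0.031), but both lost the call in 7 of 13 alternatives.

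Of 27 effector genes that TNRC6 recruits directly or through other proteins, 11 were higher and 5 lower, with a median log2 fold change of 0.18. That is 40.7% and 18.5%, beside 25.3% and 18.0% of genes of at least 5 CPM, so the lower share is near that of such genes. The decapping enzyme gene DCP2 rose from 64.4 ± 2.50 CPM in siCTR to 178 ± 10.1 CPM in siCRP2 libraries (3 each, ± SD), by 1.46 on the log2 scale (edgeR, adjusted p = 6.3e-09, the smallest of the 58 genes). Other decapping and decay genes of the list, named after their values were seen, went both ways. PATL1, EDC3 and EDC4 rose by 0.41, 0.38 and 0.46 on the log2 scale (edgeR, adjusted p = 0.0011, 0.0075 and 0.0025). DCP1A, LSM14A and XRN1 stood at -0.30, -0.30 and -0.42 (edgeR, adjusted p = 0.042, 0.019 and 0.0069). DCP1B and DDX6 did not pass. EDC3 and EDC4 share 13.8% and 21.3% of their exon bases with another gene. Within the CCR4-NOT deadenylase, the catalytic subunit gene CNOT6 fell by 0.57 on the log2 scale, with 80.4 ± 4.52 CPM in siCTR and 54.1 ± 0.511 CPM in siCRP2 libraries (edgeR, adjusted p = 0.00011), while CNOT9, whose product docks TNRC6 through tryptophans, rose by 0.49 and CNOT10 by 0.63 on the log2 scale (edgeR, adjusted p = 0.00066 and 0.00072). The other catalytic subunit genes in the list, named after their values were seen, did not follow CNOT6. Its paralog CNOT6L rose by 0.53 on the log2 scale and CNOT8 by 0.25 (edgeR, adjusted p = 0.020 and 0.040), and CNOT7 stood at 0.14 and did not pass.

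**Figure D4:**
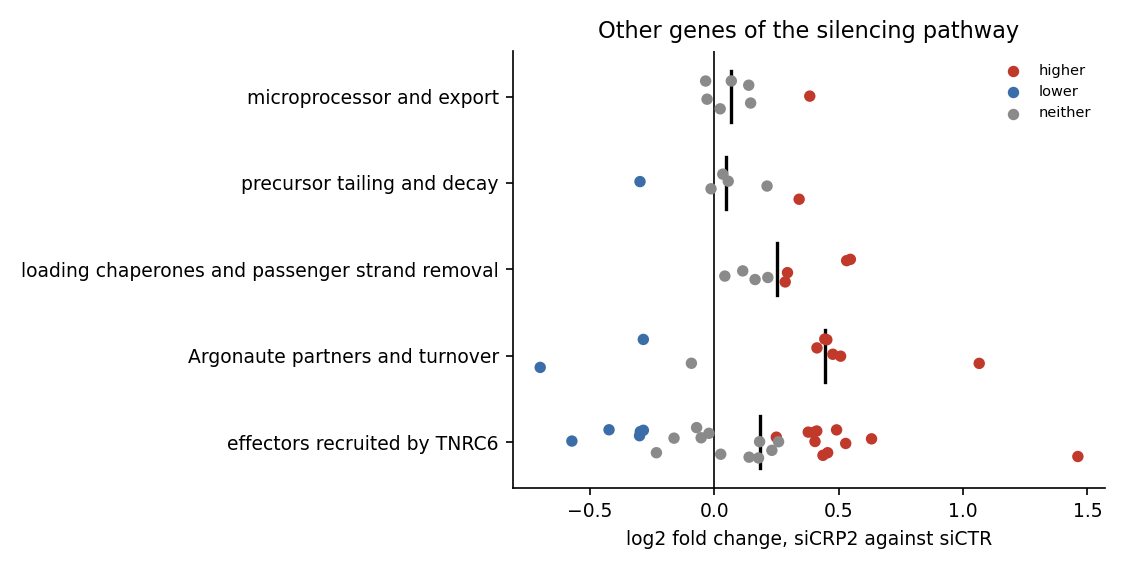
Log2 fold change of siCRP2 against siCTR for the tested genes of the 5 pathway lists, without LIN28A, which was at or under the count floor in every library. Points stand for genes, coloured red (higher), blue (lower) or grey (neither, at an adjusted p of 0.05), with random vertical offsets, and black lines mark medians over the genes drawn. Microprocessor and export genes lie near 0 except DROSHA at 0.38.

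The 3 genes whose levels followed TNRC6A most closely over the 6 libraries, among 10826 others of at least 5 CPM, were POLR3C, METTL17 and CHRNB1 (Pearson's r of log2 CPM 0.999 each). They changed less, with log2 fold changes of 0.67, 0.40 and 0.46. The correlations run over 2 groups that TNRC6A separates, and the libraries share their codes, so they are a description only.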

How the data were processed

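The authors sequenced 6 paired-end RNA libraries of MDA-MB-231 cells, aligned them with STAR and deposited raw counts per gene; the submitters' processing notes name GRCh38. The study names a stranded library preparation, but the strand setting of the count, the annotation and the STAR version were not given in the sources used here. A column's name gave its group, siCTR or siCRP2. Each name also holds a code (0412, 0611 or 1311) shared by a column of each group, and replicate numbers could not be tied to columns.

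Genes with a count in at least 2 libraries of a group (23806 of 58395) were scaled by TMM and analysed by robust quasi-likelihood tests of edgeR 4.0.16 under R 4.3.3, with the Benjamini-Hochberg adjustment over all of them and calls at an adjusted p under 0.05. The study's methods name edgeR's exact test with a fold change of at least 1.5, and both were tried as alternatives. A standard error is the absolute log2 fold change divided by the root of F. The steps were tested on simulated data. CPM used library totals times TMM factors. Levels per length were CPM per kilobase of the merged exons of GENCODE release 44. Promoter sequences came from RefSeq (GRCh38.p14) and transcripts from GENCODE.

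The members and the 5 lists of pathway genes were chosen with earlier results of these data known. Named pathway genes were the up to 4 with the smallest p of each list plus DROSHA, DGCR8 and XPO5, and the 3 genes most like TNRC6A were those with the highest Pearson correlation among genes of at least 5 CPM. Replicates within a group were not duplicates: chi-square values ran from 13.9 to 54.0 per degree of freedom. Deviations from the group means correlated at 0.723, 0.459 and 0.744 between libraries sharing code 0412, 0611 and 1311 and at most 0.114 otherwise, so the codes pair the libraries and a paired fit was made. DESeq2 (version 1.42.0), other scalings and filters, and omission of each library were the other alternatives. One marker gene is not reported here.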

Additional observations from a re-analysis of the deposited data

How the results depend on the processing

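No member changed direction in the 13 other fits, and TNRC6A, TNRC6C, AGO3 and DICER1 were called higher in each of them. Each fit draws on the libraries from which the family was picked, so these calls support nothing either. The number of members called higher ran from 4 to 6 when a library was left out, and was 3 with a fold change of at least 1.5 as well (TNRC6A, TNRC6C and AGO3, without DICER1). The number called lower was 1 with RLE size factors, DESeq2, no filter or edgeR's expression filter (AGO1 each time) and 2 with the replicate block by code, which gave 7 higher members, against 0 to 1 when a library was left out. Of the pathway genes, 17 to 22 were higher and 3 to 8 lower when a library was left out, with 3 lower without siCRP2 library 1311, 5 without siCTR library 0412 and 4 without siCTR library 0611, and 3 and 1 with the fold limit as well. The paired fit gave 28 higher and 8 lower. Shares over all genes were not counted for these other fits, so their counts of members and pathway genes have no background beside them. With a library left out DGCR8 ran from -0.031 (without siCRP2 library 1311, a change of sign) to 0.111, and XPO5 from -0.103 to 0.027, with changes of sign without siCRP2 library 0412 (0.027) and siCTR library 1311 (0.015), all within 1 standard error of 0. The log2 fold change of CSRP2 ran from -2.74 to -2.57. Canonical lengths, chosen after seeing the data, moved the share of TNRC6A to 69.7% in siCTR and 78.0% in siCRP2 libraries. The median log2 fold change over all genes stayed between -0.086 and 0.015, so no scaling shifted it by over 0.1. Causes of these differences were not tested. Without pairing, changes as small as those of AGO2 and TNRC6B lay near the limit of what 3 libraries a group could tell from the spread. With libraries paired by code, AGO2 was called lower and TNRC6B was not called.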
